A study of Camellia sinensis with 12 samples.

Results

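Small RNAs of XYMJ tea plants (Camellia sinensis) were counted per miRNA ID, and the IDs described here are those of the form cas-MIR followed by a family number of 1000 or larger. This rule used the number in the ID and no measured value, and it found 84 of the 650 listed IDs, in 67 families. The 12 libraries came from buds (sBud), from the first leaf under them (sL1), from the second, more mature leaf (sL2) and from the stem between both leaves (sS1), with 3 biological replicates per tissue, each taken from a collection of many garden-grown plants without any treatment. Tissue and replicate were taken from the sample titles, because the tissue field entered in GEO reads Leaf throughout. The kit entered there is also one for mRNA libraries. miRNAs offer no defining markers of bud, leaf and stem, so the labels were set against the likeness of the libraries over all 222 IDs tested. By differentially expressed miRNAs (DEMs, unadjusted p below 0.05 in edgeR and a log2 fold change beyond 1), the libraries labelled as first leaf were closest to those labelled as stem, with 16, and differed most from those labelled as second leaf, with 90, against 43 from those of buds. The counts alone cannot settle whether the labels sL2 and sS1 were exchanged. Here sL2 and sS1 therefore stand for the libraries so labelled, and each direction that involves them rests on these labels. All p-values set the difference between tissues against the spread between replicate libraries, not between single plants.

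Plant miRNAs are short RNAs cut from hairpin precursors by Dicer-like enzymes, and they guide Argonaute proteins to mRNAs with near-perfect matching sites, which are cleaved or translated less. miRBase numbers families in the order in which they were registered. The families with the smallest numbers are mostly those shared by nearly all land plants, whereas many of those registered later were found in a single species or lineage, and a number of these have later been questioned as fragments of other RNAs or of transposons. The counts here are of reads that resemble such registered miRNAs, and a read on an ID does not show that tea has the hairpin.

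Most of these IDs were barely counted. At least 10 counts over the 12 libraries were reached by 7 of the 84 IDs (8.33%), against 197 of the 378 IDs with a smaller family number (52.1%) and 18 of the 188 IDs without a family name (9.57%). A single count was all that 43 of the 84 IDs had (51.2%), whereas this held for 70 of the 378 with a smaller number (18.5%) and for 111 of the 188 without a name (59.0%). The 84 IDs held 30060 of the 6510241 counts of the series (0.462%), and 28814 of these fell on cas-MIR6149-1 alone (95.9%). The closest IDs on either side of the limit of 10 counts were cas-MIR1122-1 with 8 and cas-MIR1120-1 with 14. These shares are descriptions of the list of IDs and of its depth, and no test was made of them.

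**Figure D1:**
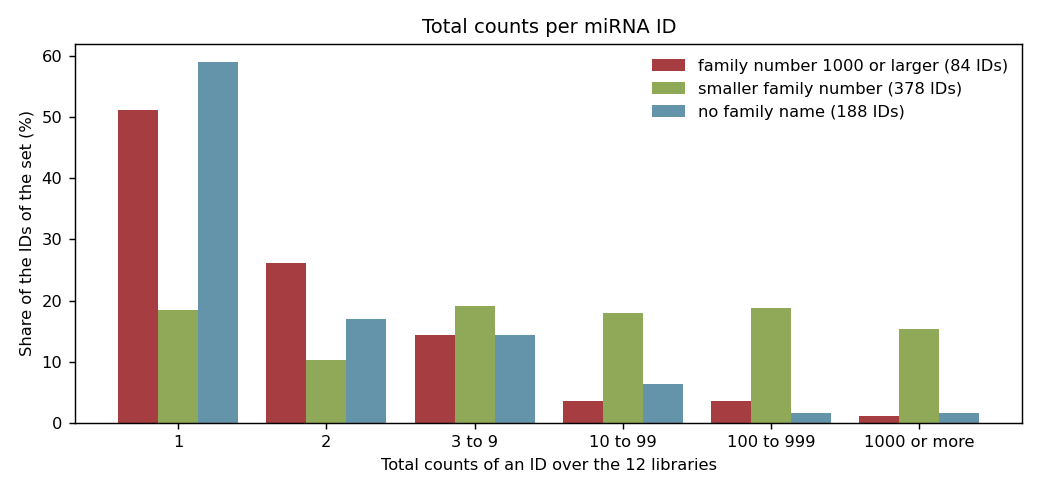
The share of IDs, in percent, is drawn against the total counts of an ID over the 12 libraries, for the 84 IDs with a family number of 1000 or larger, the 378 with a smaller number and the 188 without a family name. The 84 IDs pile up at a single count (51.2%), as do the unnamed IDs (59.0%), while 15.3% of the IDs with a smaller number had 1000 counts or more.

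The 7 IDs with at least 10 counts were cas-MIR6149-1 with 28814, cas-MIR1515-1 with 690, cas-MIR2111-1 with 185, cas-MIR8762-1 with 125, cas-MIR1511-2 with 76, cas-MIR1511-1 with 16 and cas-MIR1120-1 with 14. By total counts over all 650 IDs, cas-MIR6149-1 had rank 18, cas-MIR1515-1 rank 71 and cas-MIR1120-1 rank 203. The libraries held between 387015 and 746562 counts, so 1 count corresponded to between 1.42 and 2.84 CPM, the unit of counts scaled to the library total and edgeR's TMM factor. A count of 0 allows up to 3 counts, or between 4.26 and 8.51 CPM, a limit for counting error alone, as reads copied by PCR do not each stand for a molecule. No fold change is given where no library of either tissue exceeded 3 counts of an ID.

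cas-MIR6149-1 was the one abundant ID of the group, at a higher level in sBud and sL1 than in sL2, with sS1 in between. The family was registered from tobacco. Its counts in replicates 1, 2 and 3 were 4692, 2053 and 4263 in sBud, 2621, 2185 and 2682 in sL1, with 1821, 990 and 1257 in sL2 and with 2105, 2276 and 1869 in sS1. On the CPM scale, this was 7029 ± 1785 in sBud (SD, n = 3) and 6077 ± 1657 in sL1, against 3708 ± 364 in sS1 and 2009 ± 655 in sL2. All libraries of sBud, sL1 and sS1 lay above all those of sL2, and those of sBud and of sL1 also lay above those of sS1, while sBud and sL1 overlapped. It made up between 0.177% of a library, in sL2, and 0.905%, in sBud.

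An ID was called a DEM when edgeR's quasi-likelihood test gave it an unadjusted p below 0.05 and a log2 fold change beyond 1 in either direction. cas-MIR6149-1 was a DEM in the sBud vs. sL2 comparison group, 3.50-fold higher in sBud (log2 fold change 1.81, SE 0.28, adjusted p of edgeR = 0.000144). It was also a DEM in sL1 vs. sL2, 3.02-fold higher in sL1 (log2 fold change 1.60, SE 0.28, adjusted p of edgeR = 0.000351). These calls were kept under every alternative and with any library left out. In a tissue, a lower share of the RNA cannot be told apart from fewer cells that hold the miRNA.

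Against sS1, cas-MIR6149-1 differed by less than the fold threshold. In sBud vs. sS1 its log2 fold change was 0.92 (95% interval 0.34 to 1.51, adjusted p of edgeR = 0.0187), and it became a DEM at 1.11 without sBud replicate 2 and at 1.07 without sS1 replicate 2. It also passed at 1.03 with RLE factors or with DESeq2 and at 1.11 with library size only. Without sBud replicate 1 the value fell to 0.73, and its adjusted p of edgeR rose to 0.0929. This adjusted p was also above 0.05, between 0.0522 and 0.0761, without sBud replicate 3 or any 1 of the sS1 libraries. In sS1 vs. sL2 the value was 0.88 (95% interval 0.30 to 1.47, adjusted p of edgeR = 0.0192), and without sL2 replicate 1 it passed at 1.30. The lowest value under an alternative was 0.63. In sS1 vs. sL1 it was -0.71 (adjusted p of edgeR = 0.215). Between sBud and sL1 it was 0.21, with a 95% interval from -0.37 to 0.79, so a change of up to 0.79 on the log2 scale is within what these libraries allow.

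cas-MIR8762-1 had few counts, and its levels in sBud and sL1 were higher than in sL2 and sS1. Its counts were 29, 10 and 28 in sBud, 9, 17 and 9 in sL1, with 5, 9 and 2 in sL2 and with 1, 5 and 1 in sS1. This corresponded to 42.2 ± 15.2 CPM in sBud (SD, n = 3) and 26.9 ± 6.11 in sL1, against 7.99 ± 5.39 in sL2 and 4.11 ± 3.97 in sS1. On the CPM scale, each sBud and each sL1 library lay above every sL2 and every sS1 library, whereas sBud overlapped with sL1 and sL2 with sS1.

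The difference of cas-MIR8762-1 was 9.81-fold for sBud vs. sS1 (log2 fold change 3.29, SE 0.67, adjusted p of edgeR = 0.00221), and its log2 value was 4.50 without sS1 replicate 2, which held 5 of the 7 counts in sS1. For sBud vs. sL2 the log2 fold change was 2.39 (SE 0.61, adjusted p of edgeR = 0.00521), and 3.09 without sL2 replicate 2. For sL1 vs. sL2 it was 1.74 (SE 0.62, adjusted p of edgeR = 0.0365). The last of these was 2.41 without sL2 replicate 2 and no longer a DEM without sL2 replicate 3, at 1.35 with an unadjusted p of 0.0601 from edgeR. In sS1 vs. sL1, cas-MIR8762-1 was a DEM by the unadjusted p (log2 fold change -2.65, SE 0.69), but its adjusted p of edgeR was 0.0983. That value was -3.83 without sS1 replicate 2. The log2 fold change was 0.65 between sBud and sL1 (95% interval -0.56 to 1.85) and -0.91 between sS1 and sL2 (95% interval -2.47 to 0.66), and neither was a DEM. Without sS1 replicate 2, the latter was a DEM by the unadjusted p, at -2.01 (adjusted p of edgeR = 0.0917).

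cas-MIR2111-1 had its lowest mean in sBud and its highest in sL2. In Arabidopsis, miR2111 accumulates under phosphate starvation, and in the legume Lotus it moves from shoot to root and represses the Kelch-repeat F-box gene TML, which restricts nodulation. The counts of cas-MIR2111-1 were 10, 4 and 7 in sBud, 12, 16 and 4 in sL1, with 14, 22 and 51 in sL2 and with 16, 9 and 20 in sS1. The means were 13.5 ± 4.41 CPM in sBud (SD, n = 3) and 23.9 ± 11.0 in sL1, against 27.4 ± 13.1 in sS1 and 42.2 ± 26.8 in sL2. The sBud libraries all lay below the sL2 libraries, and sL1 and sS1 overlapped with both.

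The sBud vs. sL2 comparison group was the only one of the 6 in which cas-MIR2111-1 was a DEM, 3.08-fold lower in sBud (log2 fold change -1.62, SE 0.57, adjusted p of edgeR = 0.0330). This call rested in part on sL2 replicate 3, which held 51 of the 87 counts of that tissue. Without it the log2 fold change was -0.94 with an unadjusted p of 0.135 from edgeR, and without sBud replicate 3 it was -1.40 with an unadjusted p of 0.0543. The adjusted p of edgeR for cas-MIR2111-1 in sBud vs. sL2 was 0.0756 with no filter on low counts and 0.0502 with a replicate block. In the other comparison groups its log2 fold change lay between -0.98 (sBud vs. sS1) and 0.16 (sS1 vs. sL1). The other ID of the family, cas-MIR2111-2, had 2 counts in all.

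cas-MIR1511-2 also had its highest mean in sL2, with its lowest in sS1. In common bean, miR1511 is known to target an ALS3-like gene of aluminium tolerance. Its counts were 8, 3 and 6 in sBud, 3, 4 and 6 in sL1, with 14, 8 and 13 in sL2 and with 7, 2 and 2 in sS1. On the CPM scale, sL2 had 17.2 ± 4.64 (SD, n = 3), sBud 10.8 ± 3.66, sL1 10.7 ± 5.48 and sS1 6.19 ± 4.13. All sL2 libraries lay above all sS1 libraries, and every other pair of tissues overlapped.

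In sS1 vs. sL2, cas-MIR1511-2 was a DEM by the unadjusted p (log2 fold change -1.41, SE 0.59), with an adjusted p of 0.0689 from edgeR. The call was lost without either of sL2 replicates 1 and 3 or of sS1 replicates 2 and 3, where the log2 fold change lay between -1.30 and -1.12. Without sS1 replicate 1, the sBud vs. sS1 value of 0.77 became a DEM at 1.54 (adjusted p of edgeR = 0.131). The rule by which the authors assigned reads that match several IDs was not given in the sources used here, so reads of near-identical members may be split between IDs. Summed over its 4 IDs, the family cas-MIR1511 had 10, 6 and 11 counts in sBud, 6, 4 and 6 in sL1, with 17, 10 and 16 in sL2 and with 7, 4 and 3 in sS1. In the same test on the 60 families with at least 10 counts, in which each unnamed ID counts as a family, the log2 fold change of cas-MIR1511 was -1.48 in sS1 vs. sL2 (SE 0.48, adjusted p of edgeR = 0.0334). In sBud vs. sS1 it was 1.09 (SE 0.50, adjusted p of edgeR = 0.0928). That sum includes cas-MIR1511-3, which had 5 of its 7 counts in sBud replicate 3. The test on families also gave cas-MIR8762, a family of 1 ID, an adjusted p of edgeR of 0.0546 in sL1 vs. sL2.

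cas-MIR1515-1 passed the test in none of the comparison groups. In soybean, miR1515 targets a transcript of Dicer-like 2, an enzyme of the RNA silencing machinery. Its counts were 52, 44 and 67 in sBud, 52, 73 and 34 in sL1, with 84, 53 and 64 in sL2 and with 75, 48 and 44 in sS1. The means were 107 ± 9.95 CPM in sBud (SD, n = 3) and 122 ± 24.1 in sL1, against 99.2 ± 24.4 in sL2 and 97.3 ± 17.7 in sS1, and the libraries of each pair of tissues overlapped. It was a DEM in 0 of the 6 comparison groups, with unadjusted p from edgeR between 0.308 and 0.934. Its log2 fold changes lay between -0.33 (sS1 vs. sL1) and 0.30 (sL1 vs. sL2), and the widest limits of their 95% intervals were -0.99 and 0.96. These values depended on the libraries and the scaling. Without sL2 replicate 1 the sL1 vs. sL2 value was 0.68 (SE 0.34, unadjusted p of 0.0644 from edgeR), and with library size only the sS1 vs. sL1 value was -0.44 (SE 0.31).

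cas-MIR1511-1 and cas-MIR1120-1 were too sparse to order the tissues. cas-MIR1511-1 had 2, 1 and 0 counts in sBud, 3, 0 and 0 in sL1, with 2, 2 and 3 in sL2 and with 0, 2 and 1 in sS1, which is within the limit of 3 counts in every library. cas-MIR1120-1, of a family registered from wheat, had 0, 2 and 0 counts in sBud, 3, 0 and 0 in sL1, with 3, 0 and 1 in sL2 and with 0, 5 and 0 in sS1. Its 1 library above that limit was sS1 replicate 2, and its adjusted p of edgeR against the other tissues was between 0.718 and 0.950.

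**Figure D2:**
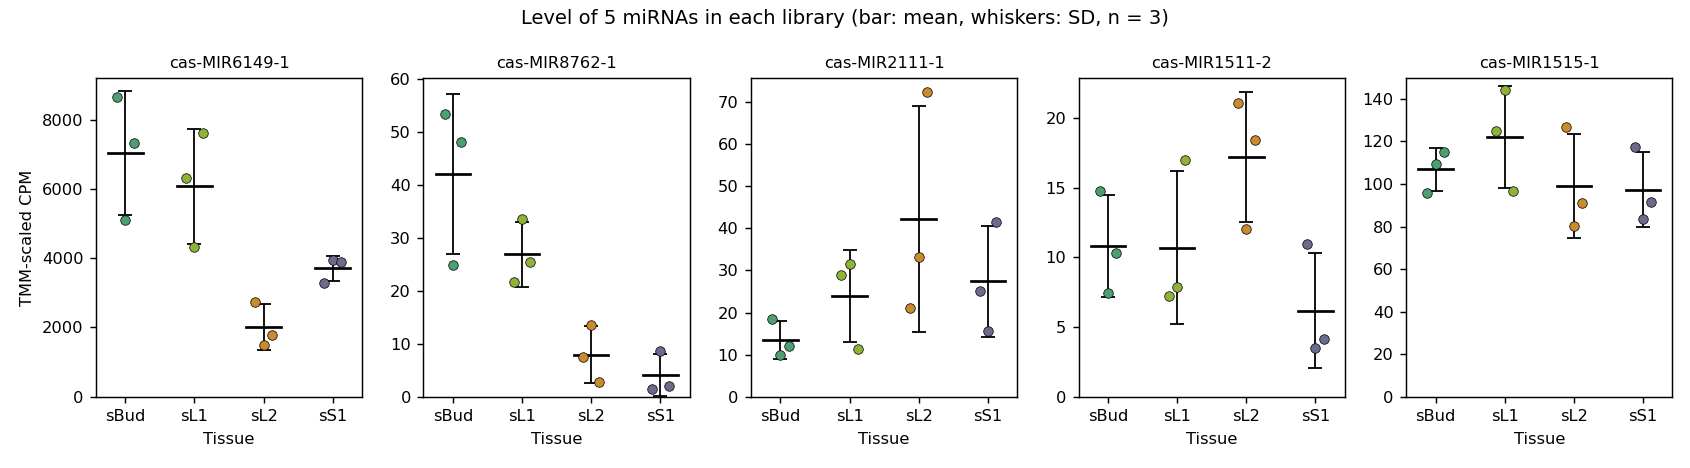
TMM-scaled CPM of 5 miRNAs in the 12 libraries, 1 point per library, with the mean (bar) and SD (whiskers, n = 3) of each tissue and a separate axis from 0 for each miRNA. cas-MIR6149-1 and cas-MIR8762-1 are higher in sBud and sL1 than in sL2, cas-MIR2111-1 and cas-MIR1511-2 have their highest means in sL2 (42.2 and 17.2 CPM), and cas-MIR1515-1 stays between 80.0 and 144 CPM.

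Set beside all tested IDs, the 7 IDs held 1 DEM in sBud vs. sS1, where 29.3% of the 222 IDs were DEMs, and 3 in sBud vs. sL2, where 43.2% were. They held 2 DEMs in sL1 vs. sL2 (40.5% of all IDs), 1 in sS1 vs. sL1 (7.21%) and 1 in sS1 vs. sL2 (41.4%). In sBud vs. sL1 none of the 7 was a DEM (19.4% of all IDs), with 0 at an unadjusted p below 0.05 in edgeR and 0 in DESeq2. With adjusted p, edgeR left 1, 3 and 2 of these in sBud vs. sS1, sBud vs. sL2 and sL1 vs. sL2, against 22.5%, 38.7% and 36% of all IDs. DESeq2 left 2, 3 and 1, and the call it lost in sL1 vs. sL2 was that of cas-MIR8762-1 (adjusted p of DESeq2 = 0.0859). The shares of all IDs with an adjusted p of DESeq2 are not given here. In sS1 vs. sL1 (0% of all IDs), in sS1 vs. sL2 (35.6%) and in sBud vs. sL1 (12.6%), 0 were left by edgeR and 0 by DESeq2. An unadjusted p below 0.05 in edgeR, at any fold change, was reached by 3 IDs in sBud vs. sL2 and by 0 in sBud vs. sL1. In each of the other comparison groups it was reached by 2 IDs. The share of all 222 IDs below this p is not given here, so these numbers are descriptions only. The median log2 fold change was taken over those of the 7 IDs with more than 3 counts in a library of either tissue. This limit was not applied to the 222 IDs. The median was 0.45 over 6 IDs in sBud vs. sS1, where it was 0.06 over all 222. It was 0.07 over 5 in sBud vs. sL1 and 0.11 over 5 in sBud vs. sL2, with 0 over all IDs in both. It was 0.30 over 5 in sL1 vs. sL2 (0.11 over all), -0.52 over 6 in sS1 vs. sL1 (-0.01) and -0.33 over 6 in sS1 vs. sL2 (-0.02). Without the limit, the medians over all 7 IDs were 0.14 in sBud vs. sS1 and 0.24 in sL1 vs. sL2. They were -0.37 in sS1 vs. sL1 and -0.64 in sS1 vs. sL2. In sBud vs. sL1 and sBud vs. sL2 they were -0.19 and -0.46, so the limit changed the sign in both. Libraries of the compared tissues did not overlap for 2 of the 7 in sBud vs. sS1 (41% of all IDs), 0 in sBud vs. sL1 (25.7%), 3 in sBud vs. sL2 (50.9%), 2 in sL1 vs. sL2 (53.2%), 2 in sS1 vs. sL1 (16.2%) and 2 in sS1 vs. sL2 (50.9%). The difference between these counts and the shares over all IDs was not tested. The comparison groups share libraries, so their calls are not independent of each other.

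**Figure D3:**
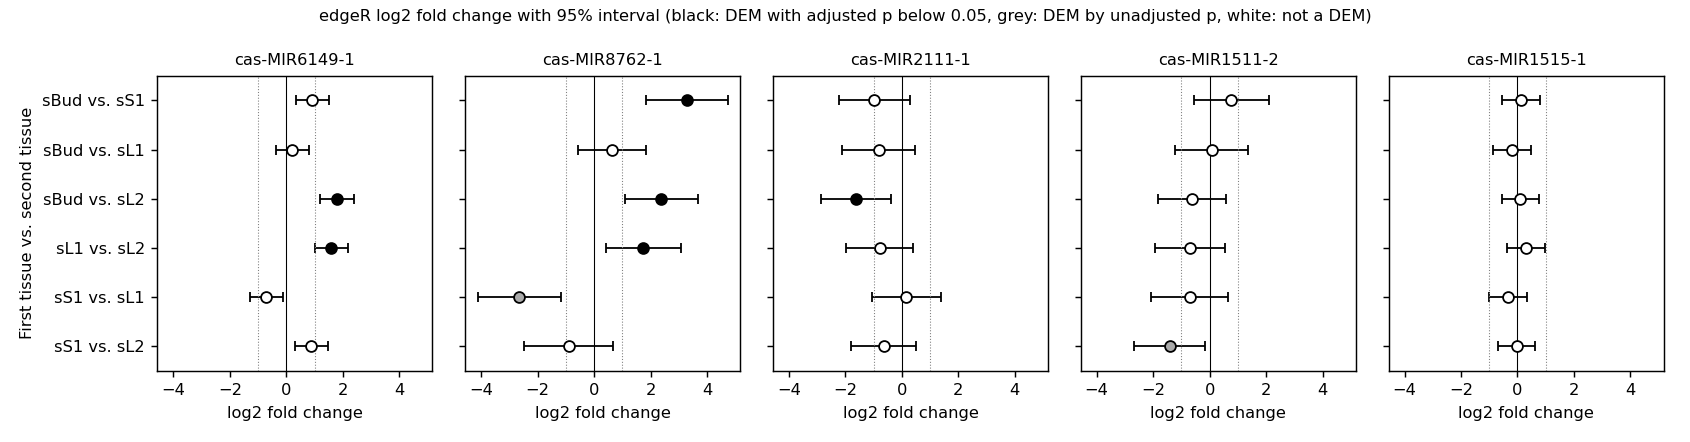
edgeR's log2 fold change with its 95% interval (horizontal axis) for 5 miRNAs in the 6 comparison groups (vertical axis). Black points are DEMs with an adjusted p below 0.05, grey points DEMs by the unadjusted p only, white points no DEMs, and dotted lines mark the threshold of 1 in both directions. The black points of cas-MIR6149-1 (1.81 and 1.60) and cas-MIR8762-1 (3.29, 2.39 and 1.74) lie to the right of 0, that of cas-MIR2111-1 (-1.62) to the left.

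Ratios within a library do not depend on the scaling between libraries, and those given here were chosen after the values were seen. For each count of cas-MIR1515-1, cas-MIR6149-1 had 90.2, 46.7 and 63.6 counts in sBud, 50.4, 29.9 and 78.9 in sL1, with 28.1, 47.4 and 42.5 in sS1 and with 21.7, 18.7 and 19.6 in sL2. The sL2 libraries were thus the lowest. For each count of cas-MIR2111-1, cas-MIR8762-1 had 2.9, 2.5 and 4.0 in sBud, 0.75, 1.06 and 2.25 in sL1, with 0.36, 0.41 and 0.039 in sL2 and with 0.063, 0.56 and 0.050 in sS1. The 3 sBud libraries were the highest, followed by the 3 sL1 libraries, and those of sL2 and sS1 overlapped. cas-MIR8762-1 had its highest mean in sBud and cas-MIR2111-1 its lowest, so this order follows in part from the choice of the pair. Neither ID was a DEM in sBud vs. sL1.

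The replicates of cas-MIR6149-1 differed by far more than the sampling of reads gives, and the chi-square within tissues was 141 per degree of freedom. For the other tested IDs with a family number of 1000 or larger it was between 1.03 (cas-MIR1511-2) and 4.37 (cas-MIR2111-1), and the median of all 222 tested IDs was 2.67. This measure grows with the counts. edgeR's biological coefficient of variation, which does not, was 0.27 for cas-MIR6149-1, 0.25 for cas-MIR1515-1, 0.39 for cas-MIR8762-1 and 0.44 for cas-MIR2111-1, against a median of 0.37. It was 0.32 for cas-MIR1511-2, and well above the median for the sparse cas-MIR1511-1 (0.53) and cas-MIR1120-1 (1.31).

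Over the 12 libraries, the tested ID outside the group whose log2 CPM followed cas-MIR6149-1 most closely was cas-MIR162_2-2, of a family known to target Dicer-like 1 (Pearson r = 0.95). For cas-MIR8762-1 it was cas-MIR159-1 (r = 0.85), for cas-MIR1511-2 cas-MIR162_1-3 (r = 0.84), for cas-MIR2111-1 cas-MIR159-26 (r = 0.78) and for cas-MIR1515-1 cas-undef-41 (r = 0.70). These values are descriptions. The 12 points of each share tissues, libraries and scaling, and each partner is the highest of 215 IDs.

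The other 77 IDs, in 63 families, had 140 counts in all and are given as a sum. By library, their summed counts were 12, 9 and 27 in sBud, 17, 12 and 4 in sL1, with 8, 6 and 14 in sL2 and with 12, 12 and 7 in sS1. Scaled, this was 30.3 ± 13.9 CPM in sBud (SD, n = 3) and 25.3 ± 14.8 in sL1, against 18.0 ± 3.22 in sS1 and 13.7 ± 5.58 in sL2. On this scale the sBud libraries lay above those of sL2 and sS1, which reached 19.9 and 20.8, and sL1 overlapped with all. No test was made of these sums, in which 1 count is worth between 1.42 and 2.84 CPM. sBud replicate 3 alone held 27 of the 140 counts (19.3%), spread over 16 IDs, and without it the sBud mean was 22.3 CPM.

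Of the 77 IDs, 43 had 1 count, 22 had 2, 5 had 3, 4 had 4, and the 3 with more were cas-MIR1122-1 with 8, and cas-MIR1509-1 and cas-MIR1511-3 with 7 each. A count was found in 1 library only for 61 of them and in at most 5 libraries for any. In a single tissue, 62 were counted, 19 of these in sBud, 16 in sS1, 15 in sL2 and 12 in sL1. The largest total among those 62 was 4 counts, while a count of 0 allows up to 3 in each library, so none can be called specific to a tissue at this depth. cas-MIR1122-1, of a family registered from wheat, was the 1 ID of the 77 with a count in all 4 tissues, with 4 in sL2, 2 in sL1 and 1 each in sBud and sS1.

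Families with known targets in other plants were among these sparse IDs. cas-MIR2118, which targets NBS-LRR disease resistance genes in legumes, had 3 IDs with 4 counts together. cas-MIR1510, which targets the same class of genes in soybean, had 2 IDs with 5 counts, 4 of them in sL1 replicate 1. For 2 further families no target is named here. cas-MIR3627 had 1 count in sS1, and cas-MIR1446, registered from poplar, had 2 IDs with 1 count each, in sBud and in sL1. The remaining families without a tested ID had at most 7 counts, and cas-MIR1122 with 11 was the only family without an ID of its own above the minimum that passed it as a sum. In the test on families it was a DEM in 0 of the 6 comparison groups, with unadjusted p from edgeR between 0.647 and 0.916.

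**Figure D4:**
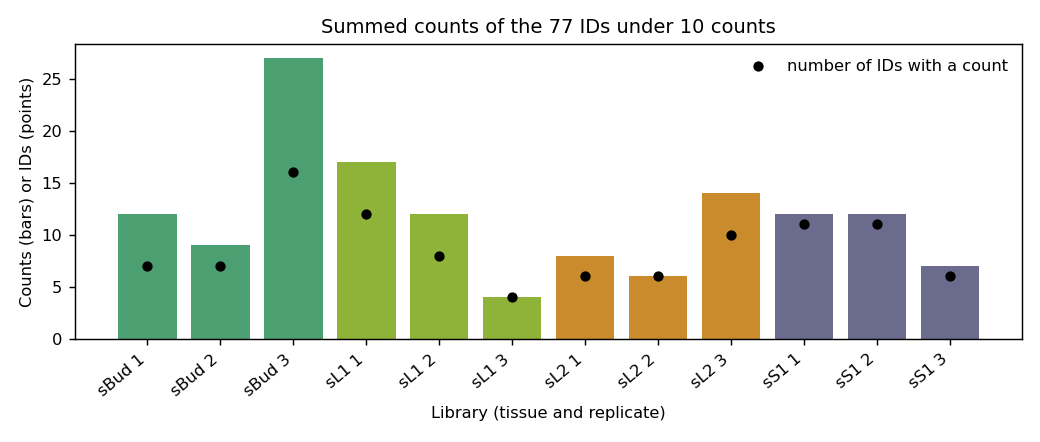
Bars are the summed counts of the 77 IDs under 10 counts in each of the 12 libraries, and points are the number of these IDs with a count. sBud replicate 3 stands out with 27 counts on 16 IDs, and the lowest is sL1 replicate 3 with 4 counts on 4 IDs.

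With cas-MIR6149-1 included, all 84 IDs summed to 7236 ± 1801 CPM in sBud (SD, n = 3) and 6291 ± 1620 in sL1, against 3866 ± 350 in sS1 and 2194 ± 671 in sL2. Without it, the sum was 207 ± 25.1 CPM in sBud and 214 ± 45.0 in sL1, against 186 ± 30.9 in sL2 and 158 ± 14.8 in sS1. The tissue pattern of the whole group was thus that of its most abundant ID. Without that ID, the highest and the lowest mean were those of sL1 and sS1, and sL1 still overlapped with sS1, with a lowest library of 162 CPM against a highest of 174, while all sBud libraries, from 182 CPM up, lay above all sS1 libraries.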

How the data were processed

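According to their methods, the authors trimmed and filtered the reads, discarded those of other ncRNA classes, and matched what remained against miRBase plant miRNAs, allowing 2 mismatches at most. The deposited values are whole-number counts per miRNA ID and library, without normalization. The members, lists and tests were chosen with earlier results of these data known. The 222 IDs whose counts over 12 libraries summed to 10 or more entered a test with edgeR 4.0.16 in R 4.3.3 (glmQLFit and glmQLFTest, TMM, 1 fit with a term per tissue, 6 comparison groups). Thresholds followed the authors' DESeq criteria, and p-values were Benjamini-Hochberg adjusted over the 222 IDs. All IDs of the group with at least 10 counts are named. Others are named as families with known targets, for their high totals, or after their values were seen. Alternatives were DESeq2 1.42.0, RLE factors, library size only, no filter, adjusted p, fits of 2 tissues, a replicate block and each library left out. The test was run on simulated counts with 1 size of change and 1 spread, so this check does not cover smaller changes or larger spreads. Replicate pairs differed beyond sampling noise (chi-square per degree of freedom 16.1 to 124), so none is a copy of another. No miRNA sequences were used here.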

Additional observations from a re-analysis of the deposited data

How the results depend on the processing

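For the 6 numbers of DEMs among the 7 tested IDs, sBud vs. sS1 had 1 DEM, and 2 with DESeq2, RLE factors or library size only, cas-MIR6149-1 being the added one, and between 1 and 2 with a library left out. sBud vs. sL1 had 0 throughout. sBud vs. sL2 had 3, and between 2 and 3 with a library left out. sL1 vs. sL2 had 2, and between 1 and 2. sS1 vs. sL1 had 1, and 0 with adjusted p. sS1 vs. sL2 had 1, 0 with adjusted p, DESeq2 or no filter, and between 0 and 1 with a library left out. With CPM by library total, the summed level without cas-MIR6149-1 in sS1 moved from 158 to 143 CPM, slightly more than its SD of 14.8, and no other summed level moved by more than 1 SD. Of 624 single values under an alternative, 605 kept their side of the thresholds, 11 were weaker, 8 stronger and 0 reversed as calls. A change of sign between values that were not DEMs counted as kept, as for cas-MIR1120-1 in sS1 vs. sL1 (-0.40 to 3.85). The 624 also include fits without a library of a tissue outside the comparison group. Library size only moved the median log2 fold change of all tested IDs by -0.26 in sS1 vs. sL2, and by 0.18 in sBud vs. sS1 and -0.17 in sL1 vs. sL2. It changed the DEMs of all tested IDs from 36 higher and 29 lower to 47 and 23 in sBud vs. sS1. The change was from 10 and 6 to 9 and 10 in sS1 vs. sL1, and from 45 and 47 to 33 and 52 in sS1 vs. sL2. With DESeq2, all tested IDs had 34 higher and 21 lower in sBud vs. sS1, and 33 and 42 in sS1 vs. sL2. With RLE factors they had 43 and 25 in sBud vs. sS1. No pairing of the libraries by replicate number was seen. The deviations of same-numbered libraries correlated above 0.1 in 1 of 18 pairs, and 4 of 12 libraries correlated best with their own number. A weak pairing could be missed in this way, because each deviation is taken from a mean of 3 libraries. The fit with the replicate block gave 1, 0, 3, 2, 1 and 1 DEMs in the 6 comparison groups, in the order above, and changed none of these numbers. Counts below about 10 limit cas-MIR8762-1, cas-MIR2111-1 and cas-MIR1511-2 in single libraries.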
